A study of Caenorhabditis elegans with 6 samples.

Results

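The promoter-proximal HIF-1 peaks of egl-9 mutants are the nuclear peaks whose centre lay at most 500 bp from the nearest annotated start of transcription (TSS) of any gene that encodes a protein. There were 264 such peaks among the 604 nuclear peaks of the egl-9 mutant list, and the other 340 are called distal here. They formed 259 separate regions, since some calls overlapped each other. The measurement was ChIP-seq with an antibody to GFP in whole L4 larvae of Caenorhabditis elegans cultured in room air at 20 °C. Both strains carried the integrated array odIs131[hif-1::gfp], a genomic hif-1 fosmid tagged with GFP, in a background in which the endogenous gene was inactivated by hif-1(ia4), a partial deletion. Both were also unc-119(ed3), with unc-119(+) as the rescue marker of the array. The control strain OR3349 had wild-type egl-9, and the mutant strain OR3350 also carried egl-9(sa307). Each genotype had 2 ChIP replicates and 1 pooled input, 6 libraries in all, but its peaks came as 1 list. No value per replicate was therefore at hand, and every interval and test below covers the sampling of peaks only, not the spread between replicates. The signal of a peak is its enrichment over input as the authors' peak caller gave it, and the files give no depth for the libraries behind it. Whole animals mix every tissue, each genotype was 1 transgenic line, and a peak does not show that a gene's expression changed.

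HIF-1 is the worm homolog of the alpha subunit of hypoxia-inducible factor. In the presence of oxygen EGL-9, a prolyl hydroxylase, marks HIF-1 for removal through VHL-1, so that egl-9 mutants accumulate HIF-1 in room air. HIF-1 pairs with AHA-1, the homolog of ARNT, and the pair binds hypoxia response elements (HREs), whose core is ACGTG or GCGTG on either strand. Neighbouring worm genes are often transcribed away from each other out of a common intergenic stretch, and many worm transcripts receive a spliced leader in place of their own first bases. An annotated TSS can therefore lie downstream of the point at which transcription begins.

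The windows below are 121 bp of the RefSeq WBcel235 genome around the centres of 11 member peaks with an HRE core, each on the strand of the named gene and written 5′ to 3′. Capitals mark the core (ACGTG or GCGTG, or CACGT or CACGC where it lies on the opposite strand). The first 8 are among the highest promoter-proximal peaks and show where the core lay in strong peaks, phdh-1 and Y62E10A.13 both being genes of serine synthesis.
nhr-57 (chrV:4131625-4131745, plus strand): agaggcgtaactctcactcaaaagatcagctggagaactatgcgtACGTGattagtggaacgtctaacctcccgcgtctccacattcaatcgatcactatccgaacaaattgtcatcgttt
rpl-3 (chrIII:3867524-3867644, plus strand): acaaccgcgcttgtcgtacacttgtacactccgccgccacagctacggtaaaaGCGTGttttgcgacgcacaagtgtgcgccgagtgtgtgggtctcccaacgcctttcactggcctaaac
F22B5.4 (chrII:8451562-8451682, plus strand): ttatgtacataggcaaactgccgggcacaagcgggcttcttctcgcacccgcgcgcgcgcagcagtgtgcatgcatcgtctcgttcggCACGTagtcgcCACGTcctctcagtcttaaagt
gst-19 (chrII:13627174-13627294, minus strand): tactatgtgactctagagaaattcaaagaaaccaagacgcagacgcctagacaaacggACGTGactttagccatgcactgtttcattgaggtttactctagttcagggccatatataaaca
sdha-1 (chrX:8546140-8546260, minus strand): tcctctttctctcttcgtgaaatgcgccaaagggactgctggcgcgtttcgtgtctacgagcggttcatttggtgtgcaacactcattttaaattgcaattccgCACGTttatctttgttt
Y17G9B.5 (chrIV:4750026-4750146, plus strand): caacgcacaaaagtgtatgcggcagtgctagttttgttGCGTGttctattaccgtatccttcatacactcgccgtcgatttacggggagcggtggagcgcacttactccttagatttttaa
Y62E10A.13 (chrIV:13396513-13396633, minus strand): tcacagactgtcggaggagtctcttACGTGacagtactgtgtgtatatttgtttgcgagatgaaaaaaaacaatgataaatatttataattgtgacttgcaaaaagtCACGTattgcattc
phdh-1 (chrII:13638637-13638757, minus strand): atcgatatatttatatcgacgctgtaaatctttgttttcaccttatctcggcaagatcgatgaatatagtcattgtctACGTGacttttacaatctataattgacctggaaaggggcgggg
The next 3 come from divergent promoters, where 1 peak stands between genes that point away from each other.
rpl-15 (chrIV:654884-655004, minus strand): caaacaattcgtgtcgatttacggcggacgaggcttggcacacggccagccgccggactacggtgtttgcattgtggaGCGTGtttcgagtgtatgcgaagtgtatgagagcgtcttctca
F29B9.11 (chrIV:4660455-4660575, minus strand): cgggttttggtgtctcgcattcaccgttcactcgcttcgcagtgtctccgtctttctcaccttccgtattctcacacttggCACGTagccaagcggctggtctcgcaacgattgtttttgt
drr-2 (chrIII:13643668-13643788, minus strand): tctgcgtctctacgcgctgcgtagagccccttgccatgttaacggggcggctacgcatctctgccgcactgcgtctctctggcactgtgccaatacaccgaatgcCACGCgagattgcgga
The bases beside the core recurred in part, as TACGTG on either strand in the windows of nhr-57, phdh-1, Y62E10A.13, F22B5.4 and F29B9.11 and as GCGTGTT in those of rpl-3, Y17G9B.5 and rpl-15. Both cores of F22B5.4 were on the strand opposite to the gene, and Y62E10A.13, whose window lies downstream of the TSS, had 1 core on each strand.

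The next windows show member peaks at 2 chaperone genes that held no core within 100 bp of the centre but held the repeat GAGAGA, here on the opposite strand as TCTCTC in capitals. dnj-13 encodes a DnaJ (Hsp40) protein and hsp-1 the constitutive Hsp70.
dnj-13 (chrII:11545459-11545579, plus strand): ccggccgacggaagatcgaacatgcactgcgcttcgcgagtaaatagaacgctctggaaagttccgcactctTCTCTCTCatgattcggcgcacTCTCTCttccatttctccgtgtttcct
hsp-1 (chrIV:17278532-17278652, plus strand): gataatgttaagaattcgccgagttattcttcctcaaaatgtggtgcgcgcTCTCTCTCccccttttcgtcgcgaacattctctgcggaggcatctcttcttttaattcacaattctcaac
The dnj-13 window held 3 matches and the hsp-1 window 2, counting overlapping ones. The peak at dnj-13 had a signal of 118.6 and that at hsp-1 a signal of 103, both above the median of all nuclear peaks, 76.7.

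Promoter-proximal peaks lay mostly just upstream of the gene. The centre was upstream of the nearest TSS in 225 peaks, at a median of 193 bp, and downstream in 38 peaks, at a median of 90.5 bp. The remaining peak was centred on the TSS of enpl-1, the gene of the endoplasmic reticulum chaperone endoplasmin. The median distance in either direction was 183 bp, and 40, 70 and 142 centres lay within 50, 100 and 200 bp of the TSS. The upstream share was 85.2% (Wilson 95% interval 80.4 to 89), against 209 of 340 distal peaks, 61.5% (56.2 to 66.5), and 71.9% of all nuclear peaks (odds ratio 3.62, p = 6e-11 by Fisher's exact test, two-sided, adjusted p = 4.8e-10 over 8 tests). With genes of every biotype in place of protein-coding genes the odds ratio was 1.27 (adjusted p = 0.297, Fisher's exact test). The side and the 500 bp limit come from the same distance, and the upstream share of all genome positions was not counted. Whether the layout of genes alone gives such a difference was not tested. By annotation, 172 centres (65.2%) were intergenic, 45 (17%) in an intron, 22 (8.33%) in a 5′ UTR, 17 (6.44%) in a non-coding gene, 6 in a coding exon and 2 in a 3′ UTR. Among distal peaks 184 (54.1%) were intergenic and 94 (27.6%) intronic.

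**Figure D1:**
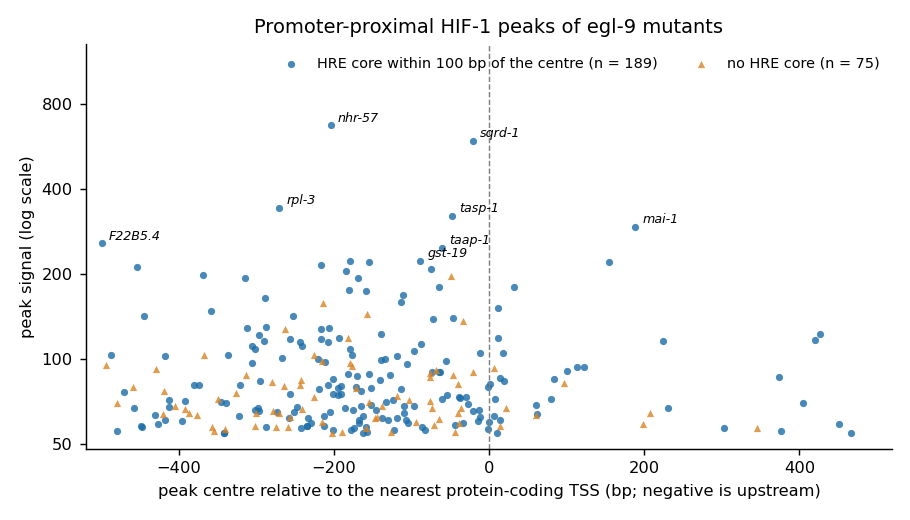
Signal of the 264 promoter-proximal peaks (vertical axis, logarithmic) against the distance of the peak centre from the nearest protein-coding TSS in bp (horizontal axis, negative upstream). Blue points have an HRE core within 100 bp of the centre (n = 189), orange triangles have none (n = 75), and the highest peaks, named by gene, all have one.

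At the closest positions the centre of the peak and the TSS were nearly the same base. xbp-1, which encodes the bZIP factor of the unfolded protein response, had its centre 1 bp upstream of the TSS with a signal of 79.6. fbxa-108, also at 1 bp upstream, had 56.4, and Y39B6A.43, at 1 bp downstream, had 81.4. pdi-6, a protein disulfide isomerase gene, had its centre 6 bp downstream with a signal of 62.8, and the peak on the enpl-1 TSS had a signal of 59.8. The 5 peaks closest to a TSS were thus all of modest height. At the 500 bp limit, the last members were F22B5.4 at 499 bp upstream (signal 255.8), K12H4.5 at 493 bp (94.8) and bet-2 at 487 bp (103.2). The first peaks outside were those of nfya-1 at 501 bp upstream (60.1), ZK1248.17 at 513 bp downstream (95.3) and enol-1, the enolase gene, at 514 bp upstream (58.5).

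The signal of peaks near a TSS covered nearly the same range as that of distal peaks, and no difference was detected. Signal ran from 54.4 at Y22D7AL.6 to 670 at nhr-57, with a median of 74.7 and a middle range of 62.4 to 102.7. Distal peaks ran from 54.5 to 838.4 with a median of 78. Above the median of the whole list, which by construction holds 50% of the peaks, were 127 members (48.1%, 42.1 to 54.1) and 175 distal peaks (51.5%, 46.2 to 56.7), with an odds ratio of 0.874 (p = 0.46 by Fisher's exact test, adjusted p = 0.614). At the top of the list the members were 2 of the strongest 10 peaks, 19 of the strongest 50, 36 of the strongest 100 and 84 of the strongest 200. In the whole list they were 264 of 604, and the counts at the top were not tested against that share. With genes of every biotype the odds ratio was 0.599 (adjusted p = 0.0197, Fisher's exact test).

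The highest promoter-proximal peak stood 204 bp upstream of nhr-57, a nuclear hormone receptor gene, and ranked 3 in the whole list with a signal of 670. Its single core lay 217 bp upstream of the TSS. The next, at sqrd-1, the sulfide:quinone oxidoreductase of mitochondrial sulfide oxidation, ranked 6 with a signal of 589.8, was centred 21 bp upstream of the TSS and had its core at 41 bp upstream. These were the only 2 members among the strongest 10, and the step to the third member was large. rpl-3, a protein of the large ribosomal subunit, followed with 341.7 at 270 bp upstream, then tasp-1 with 320.2 at 48 bp upstream. mai-1, a gene of the ATP synthase inhibitor family, had a signal of 293.7 at 188 bp downstream, in the 5′ UTR. F22B5.4 (255.8), taap-1 (247.1, at 60 bp upstream) and gst-19 (222, at 89 bp upstream) completed the 8 highest, gst-19 being a glutathione S-transferase gene. All 8 held an HRE core, although their centres were spread from 499 bp upstream to 188 bp downstream.

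Several of the next members belonged to mitochondrial carbon metabolism and to serine synthesis. sdha-1, a subunit of succinate dehydrogenase, had a signal of 220.9 at 179 bp upstream, with the centre inside a snoRNA gene. Y62E10A.13, phosphoserine phosphatase, had 220 at 155 bp downstream, in an intron, and phdh-1, phosphoglycerate dehydrogenase, had 214.8 at 217 bp upstream. The 2 enzymes bracket serine synthesis, and F26H9.5, phosphoserine aminotransferase, which acts between them, had a low peak of 64.5 at 208 bp downstream with no core. pccb-1, the beta subunit of propionyl-CoA carboxylase, had 203.6 at 184 bp upstream, and cox-5A, a subunit of cytochrome c oxidase, 164.6 at 289 bp upstream. The highest member without a core was nurf-1, of the NURF chromatin remodelling complex, with 195.5 at 49 bp upstream. tos-1 (208.5, at 75 bp upstream, with 4 cores), cdc-48.1, the p97 AAA ATPase (193.5), and iff-2, eIF5A (179.4), stood in the same range, with ints-4 (178.7, at 32 bp downstream) and nifk-1 (175.7, at 180 bp upstream) next.

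Few of these peaks overlapped a peak of the control strain, whose EGL-9 is intact. Of the 264 members 12 (4.55%) overlapped a control peak, against 49 of 340 distal peaks (14.4%) and 10.1% of all nuclear peaks (odds ratio 0.283, p = 5.9e-05 by Fisher's exact test, adjusted p = 8.85e-05 over 3 tests added after the values were seen). With the limit at 1000 bp from the TSS the odds ratio was 0.62 (adjusted p = 0.0978, Fisher's exact test). The control list held 52 nuclear peaks, and the 2 lists were not scaled to each other, so that the signals stand side by side and give no fold. The nhr-57 region had a signal of 478.8 in the control list beside 670 in egl-9 mutants, and sqrd-1 had 188.3 beside 589.8. rpl-3 had 280.2 beside 341.7, tasp-1 201.7 beside 320.2, rpl-15 171.7 beside 198.3 and F29B9.11 143.6 beside 192.9. egl-9 itself, mutated in OR3350, had 165.7 in the control list beside 122.2 in the mutant list, at a peak 139 bp upstream of its TSS with 3 cores. The signal was also the higher in the control list at F40F11.3 (175 beside 58.8) and nas-10 (141.8 beside 55.3, with the centre in a tRNA gene). By the paper's methods, however, the minimum enrichment of the control list was higher than that of the mutant list and above both of these mutant signals. A control call at F40F11.3 or nas-10 thus had to be the higher, and the direction there is not a result. The other 3 overlapping calls were weaker neighbours of the peaks at nhr-57, sqrd-1 and F29B9.11.

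Most promoter-proximal peaks held an HRE core. Within 100 bp of the centre ACGTG or GCGTG was found on either strand in 189 members (71.6%, 65.9 to 76.7), in 220 distal peaks (64.7%, 59.5 to 69.6) and in 67.7% of all nuclear peaks. The odds ratio of 1.37 did not pass (p = 0.0795 by Fisher's exact test, adjusted p = 0.159), and its direction turned with ACGTG alone (0.929) and with genes of every biotype (0.777). Windows of the same length at the members' distances from the TSSs of all protein-coding genes held a core in 28.1% of cases. At least 2 cores were found in 97 members (36.7%) and 119 distal peaks (35%), with 35.8% over all nuclear peaks (odds ratio 1.08, p = 0.67 by Fisher's exact test, adjusted p = 0.765). adh-1, an alcohol dehydrogenase gene, had the most with 6 cores and a signal of 78.8, and nhr-135 (62.7) and the promoter of T28F4.8 and T28F4.4 (103) had 5 each. A CACGTG site counts as 2 cores, 1 on each strand, so the number of cores is not a number of separate sites. The signal at adh-1 and nhr-135 was near or below the middle of the list. That at the promoter of T28F4.8 and T28F4.4 was above it.

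The share with a core followed the rank of the signal among the members. It was 10 of the highest 10, 34 of the next 40 (85%), 36 of the next 50 (72%), 66 of the next 100 (66%) and 43 of the lowest 64 (67.2%). The median signal was 78.8 for members with a core and 68 for those without, and 81.8 and 67.7 for distal peaks. GAGAGA showed no such order, with 4 of the highest 10, 15 of the next 40, 16 of the next 50, 37 of the next 100 and 24 of the lowest 64. These shares are descriptions, with no test.

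The 2 forms of the core were about equally common near a TSS. ACGTG was found in 114 members (43.2%) and 153 distal peaks (45%), and GCGTG in 116 members (43.9%, 38.1 to 50) and 119 distal peaks (35%, 30.1 to 40.2). The odds ratio for GCGTG was 1.46 (p = 0.0287 by Fisher's exact test, adjusted p = 0.0287 over the 3 tests added after the values were seen). Other sequence forms were read in the same peaks, and this adjustment does not cover the choice of GCGTG among them. The difference was no longer past the threshold with TSSs within 250 bp (1.34), 1 TSS per gene (1.37), the 302 strongest peaks (1.48) or 200 bp read on either side (1.12). The longer form TACGTG, as in the nhr-57 window, was found in 49 members (18.6%) and 68 distal peaks (20%). ACGTGA, as in the windows of nhr-57, gst-19, phdh-1 and Y62E10A.13, was found in 61 members (23.1%) and 82 distal peaks (24.1%). CACGTG, the E-box bound by other basic helix-loop-helix factors, was in 30 members (11.4%) and 57 distal peaks (16.8%), against 3.68% of the windows at all promoters.

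Cores were more frequent near the centre of the peak than towards the edge of the window. The 189 members with a core held 331 cores, 174 on the strand of the nearest gene and 157 on the opposite strand. Counted from the centre, 98 lay at 0 to 25 bp, 102 at 26 to 50 bp, 63 at 51 to 75 bp and 68 at 76 to 98 bp. The core nearest to the centre lay at a median of 30 bp from it and within 25 bp in 79 members. Relative to the TSS, this core was upstream in 158 members and downstream in 31, with a median position of 160 bp upstream. By bins of 100 bp, the nearest core lay over 100 and up to 200 bp upstream in 53 members, over 200 and up to 300 bp upstream in 34, within 100 bp upstream in 34 and from the TSS to 99 bp downstream in 15. The peak centres had the same mode, with 66, 58, 49 and 21 in these bins, and a core counted here lay within 100 bp of a centre by construction.

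**Figure D2:**
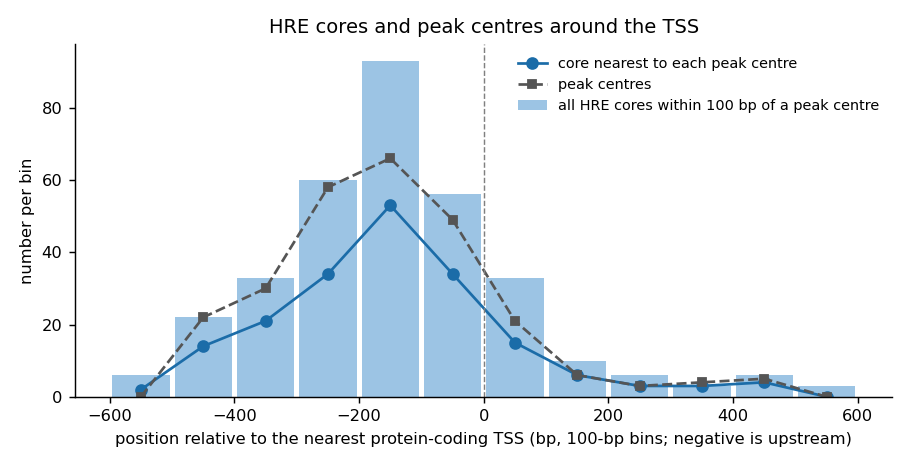
Positions of peak centres and of HRE cores relative to the nearest protein-coding TSS in bp (negative upstream), in bins of 100 bp, for the promoter-proximal peaks, with the number per bin on the vertical axis. Bars are all cores within 100 bp of a centre, the solid line is the core nearest to each centre and the dashed line is the peak centres. Centres and nearest cores are highest in the bin that ends 200 bp upstream of the TSS, with 66 centres and 53 nearest cores.

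A core was more frequent in each distance bin than at promoters in general. It was found in 65.4% of the 52 members centred over 300 bp upstream, 69% of 58 at over 200 and up to 300 bp, 78.8% of 66 at over 100 and up to 200 bp and 65.3% of 49 within 100 bp upstream. In the first 100 bp downstream it was found in 76.2% of 21. At the same distances from all protein-coding TSSs the share was 24.8%, 26.9%, 30.5%, 30.8% and 28.7%. Upstream members had a core in 158 of 225 (70.2%, 63.9 to 75.8) and the others in 31 of 39 (79.5%, 64.5 to 89.2), with an odds ratio of 0.609 (p = 0.336 by Fisher's exact test, adjusted p = 0.537). The median signal of these 5 bins ran from 71.4 to 79.2, and it was 93.5 over the 6 members centred over 100 and up to 200 bp downstream and 65.8 over the 12 members beyond them.

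**Figure D3:**
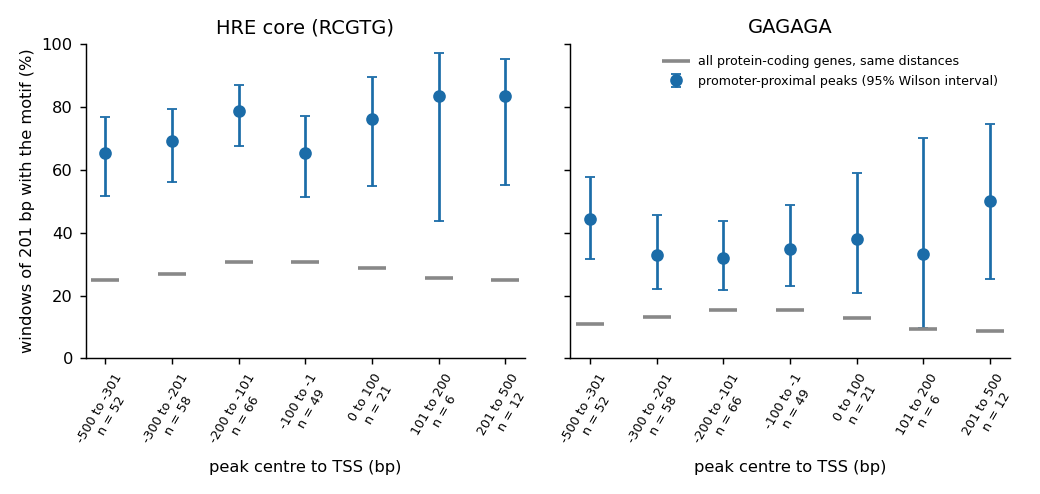
Share of promoter-proximal peaks with an HRE core (RCGTG, R being A or G) and with GAGAGA (vertical axes, percent) by distance of the centre from the TSS (horizontal axis, bp, negative upstream), with Wilson 95% intervals, beside the share in windows of the same length at all protein-coding promoters. The core was found in 65.3% to 78.8% of peaks in the 4 upstream bins and in 24.8% to 30.8% of all promoters there.

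GAGAGA was less frequent than the core and shared part of its peaks. It was found in 96 members (36.4%, 30.8 to 42.3) and 151 distal peaks (44.4%, 39.2 to 49.7), with 40.9% over all nuclear peaks and 13.4% at all promoters. The odds ratio was 0.715 (p = 0.0549 by Fisher's exact test, adjusted p = 0.146). It passed with TSSs within 250 bp (0.628), with 200 bp read on either side (0.643) and without peaks near small RNA genes (0.624). Both GAGAGA and a core were present in 74 members, a core alone in 115, GAGAGA alone in 22 and neither in 53. The members with neither can hold a core outside the window, since only 100 bp on either side were read. The mean GC content of the windows was 44.9% in members and 45.8% in distal peaks.

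Small RNA genes were less often near promoter-proximal peaks than near distal ones. A tRNA, snoRNA or snRNA gene lay within 500 bp of 21 members (7.95%, 5.26 to 11.9), 78 distal peaks (22.9%, 18.8 to 27.7) and 16.4% of all nuclear peaks. The odds ratio was 0.29 (p = 4.56e-07 by Fisher's exact test, adjusted p = 1.83e-06). With TSSs within 1000 bp it was 0.474. Of the 21 members 12 had a snoRNA, 8 a tRNA and 1 a snRNA gene nearby, and among distal peaks 27, 39 and 12. The centre lay in a tRNA gene at nas-10, Y22D7AL.6 and gcy-33, the last a guanylate cyclase gene.

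Chromosome X held a smaller share of the promoter-proximal peaks than of the distal ones. It had 40 members (15.2%, 11.3 to 20) and 29.7% of the distal peaks (25.1 to 34.8), with an odds ratio of 0.423 (p = 2.77e-05 by Fisher's exact test, adjusted p = 8.3e-05 over the 3 tests added after the values were seen). Set against the genes, X had 14.6 members per 1000 protein-coding genes. Chromosome III had 17.4, chromosome V had 9.61, and the others from 13.2 to 14. The member density on X was thus within the range of the autosomes.

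Shared promoters were frequent among these peaks. The centre of 68 members (25.8%) lay within 500 bp of the TSSs of at least 2 genes. Of these, 62 (23.5%) were divergent pairs, 5 were pairs on 1 strand and 1 had overlapping starts. Of all protein-coding genes, read at the members' distances, 15.3% have the TSS of another gene within 500 bp. That is a share of genes and not of peaks, so the units differ. Of the genome positions within 500 bp of a protein-coding TSS, 5.51% lie within 500 bp of 2 or more genes. The excess over these shares was not tested. The divergent TSSs were 15 to 814 bp apart, with a median of 409 bp, and the peak centre lay between them in 54 of the 62. The median signal was 78.6 at divergent promoters, 73.1 at single ones and 88.9 at the 5 pairs on 1 strand. A core was found in 48 of 68 shared promoters (70.6%, 58.9 to 80.1) and in 141 of 196 single ones (71.9%, 65.3 to 77.8), with an odds ratio of 0.936 (p = 0.876 by Fisher's exact test, adjusted p = 0.876).

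At a divergent promoter the peak cannot be assigned to 1 of the genes. The highest stood between rpl-20, of the large ribosomal subunit, at 308 bp and Y17G9B.5 at 154 bp, with a signal of 220.4. Next was rpl-15, also of the large subunit, at 368 bp with K11H12.8 at 446 bp (signal 198.3). F29B9.11 and the histone demethylase gene jmjd-1.2 had TSSs 790 bp apart, the centre being 314 bp from the former and 476 bp from the latter (192.9). drr-2 and set-16, a histone H3K4 methyltransferase gene, were 158 and 188 bp from a peak of 174.3 with 1 core and GAGAGA. R08E5.1 and rips-1, a methyltransferase gene, shared a peak of 167.5 at 111 and 392 bp. rips-1 had a further peak of 118.1 with 3 cores, 12 bp downstream of its own TSS. jmjd-4 and mev-1, the cytochrome b subunit of succinate dehydrogenase, were 145 and 114 bp from a peak of 158.7. These 6 promoters each held 1 core.

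**Figure D4:**
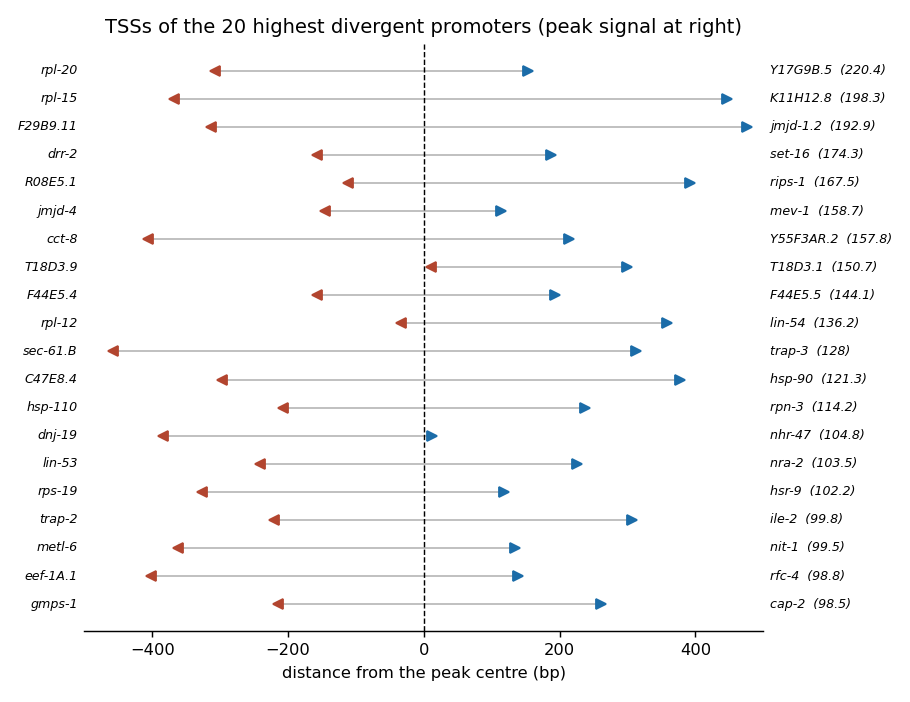
The 20 highest divergent promoters drawn to scale, 1 per row, with the peak centre at 0 on the horizontal axis (bp), the TSSs of the left and right gene as triangles that point in the direction of transcription, and the signal of the peak beside the right gene. The TSS gaps ran from 259 to 814 bp in the 6 highest pairs, and the centre lay between the TSSs in each of these.

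Other divergent promoters joined genes of protein folding. cct-8, a subunit of the chaperonin TRiC, at 407 bp shared a peak of 157.8 without a core with Y55F3AR.2 at 214 bp. F44E5.4 and F44E5.5, a pair of Hsp70 genes, stood 351 bp apart around a peak of 144.1 that held GAGAGA and no core. They are near-identical copies, and how reads in such copies were assigned was not given in the sources used here. hsp-90, the worm Hsp90, shared a peak of 121.3 with 1 core with C47E8.4. The Hsp110 gene hsp-110 shared a peak of 114.2, also with 1 core, with rpn-3, a lid subunit of the proteasome. rpl-12 and lin-54, of the DREAM complex, were 34 and 359 bp from a peak of 136.2 without a core. T18D3.9 and T18D3.1, in contrast, shared a peak of 150.7 with 3 cores. Divergent peaks at folding genes were thus found both with a core, as at hsp-90 and hsp-110, and without one, as at cct-8.

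The 264 peaks lay within 500 bp of a TSS of 324 of 19973 protein-coding genes, 1.62% of them. Of the 324 genes, 232 (71.6%) were at a peak with a core, 136 (42%) at a shared promoter and 82 were known by a sequence name only. The median over the genes of the highest proximal signal was 76.1. Genes in any of the 25 lists of families and pathways counted here made up 98 of the 324 (30.2%) and 2042 of all genes (10.2%). The lists were drawn up with earlier results of these data known, so their counts are descriptions and carry no test. Most HIF-1 sites lie, according to the paper, at or close to regions that many transcription factors bind. The paper proposes that such regions possibly give false ChIP-seq signals, and it saw little change in the expression of their nearest genes. However, part of the sites it calls functional, from binding and expression together, also lie in such regions. The genes assigned to those sites changed with HIF-1, and the paper proposes that these sites are functional. Whether the peaks at the listed genes lie in such regions was not tested.

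HIF-1's own regulators and known targets had the highest share, 6 of 16 genes (37.5%), all 6 at a peak with a core and none at a shared promoter, with a median signal of 189. Beside nhr-57, sqrd-1 and F22B5.4 these were egl-9 (122.2), rhy-1 and oac-54. rhy-1, an acyltransferase-like inhibitor of HIF-1, had a peak of 115.5 at 224 bp downstream, in an intron, and oac-54, of the same acyltransferase family, had 93.7 at 122 bp downstream, in a coding exon. egl-9 had a further peak of 78.2, in an intron and 219 bp upstream of an internal TSS. The negative regulators egl-9 and rhy-1 were thus both among the genes with proximal peaks, at proximal signals well below those of nhr-57 and sqrd-1. Peaks over 500 bp from a TSS are not counted here. The paper places both genes among those with the most HIF-1 sites.

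Enzymes of sulfide, cysteine and serine metabolism followed with 6 of 30 genes (20%), 5 of them at a peak with a core and a median signal of 177.3. In the sulfide branch these were sqrd-1, ethe-1, the persulfide dioxygenase (139.8 at 46 bp upstream), and mpst-3, a mercaptopyruvate sulfurtransferase (104.6 at 18 bp downstream). Together with phdh-1, F26H9.5 and Y62E10A.13 of serine synthesis they spanned both branches. Glycolysis and gluconeogenesis had 5 of 27 genes (18.5%), all with a core, with a median of 112.4. They were the aldolase aldo-1 (127.1), the lactate dehydrogenase ldh-1 (122.6 at 427 bp downstream), the pyruvate carboxylase pyc-1 (112.4, with 4 cores), the phosphoglycerate mutase ipgm-1 (71.8) and the hexokinase hxk-3 (63.9). None of these 11 genes was at a shared promoter.

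Mitochondrial respiration was represented by entry enzymes and by subunits of the chain. The tricarboxylic acid cycle and pyruvate dehydrogenase had 4 of 31 genes (12.9%) with a median of 121.2, namely sdha-1 and mev-1 of succinate dehydrogenase, the aconitase aco-2 (83.6) and the pyruvate dehydrogenase kinase pdhk-2 (75.1). All 4 were at a peak with a core. Oxidative phosphorylation had 5 of 42 genes (11.9%) with a median of 81.1, among them cox-5A, cox-5B (81.1) and cox-6B (61.9) of cytochrome c oxidase and atp-1 (92.9) of the ATP synthase. Of the 5 genes, 3 were at a peak with a core, and the peaks of cox-5B and atp-1 held none. Among the mitochondrial ribosomal proteins mrpl-53 (56.7) was 1 of 70 genes (1.43%), near the 1.62% of all genes, and the 21 genes of the vacuolar ATPase are too few for their count of 0 to be set against that share.

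Cytosolic ribosomal proteins gave the largest number of genes of any list, 15 of 82 (18.3%), of which 9 had a core and 10 were at a shared promoter. Their median signal was 91, and their peaks were centred 34 to 459 bp upstream of the TSS. The highest were rpl-3, rpl-20, rpl-35 (212 at 453 bp upstream) and rpl-15, all of the large subunit, followed by rps-1 (141.1) of the small one. The lowest were rps-0 (58.2) and rpl-22 (56). Every ribosomal peak was thus upstream of its gene, and the height varied from near the top of the list to near its end. Translation factors and aminoacyl-tRNA synthetases had 8 of 74 genes (10.8%), 7 with a core, with a median of 86.8. These included iff-2, eif-3.C (111.2), a subunit of initiation factor eIF3, and the elongation factors eef-1A.1 (98.8) and eef-2 (65.3). eef-1B.1 shared its peak of 83.6 with aco-2.

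Chaperones had 11 of 68 genes (16.2%) with a median of 103, 6 with a core and 6 at a shared promoter. The list did not hold F44E5.4 and F44E5.5, so these counts leave them out. Beside cct-8, hsp-90, hsp-110, dnj-13 and hsp-1 these were dnj-19 (104.8, shared with nhr-47), cct-1 (96.9), hsp-3, the BiP homolog of the endoplasmic reticulum (90.1), dnj-9 (80.4), pdi-6 and enpl-1. The translocon, through which proteins enter the endoplasmic reticulum, had peaks at sec-61.B (128), sec-61.G (97.5) and sec-61.A (67), which made up 3 of the 7 genes of 123 in the trafficking list. The trafficking list as a whole had 5.69% of its genes at a proximal peak.

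**Figure D5:**
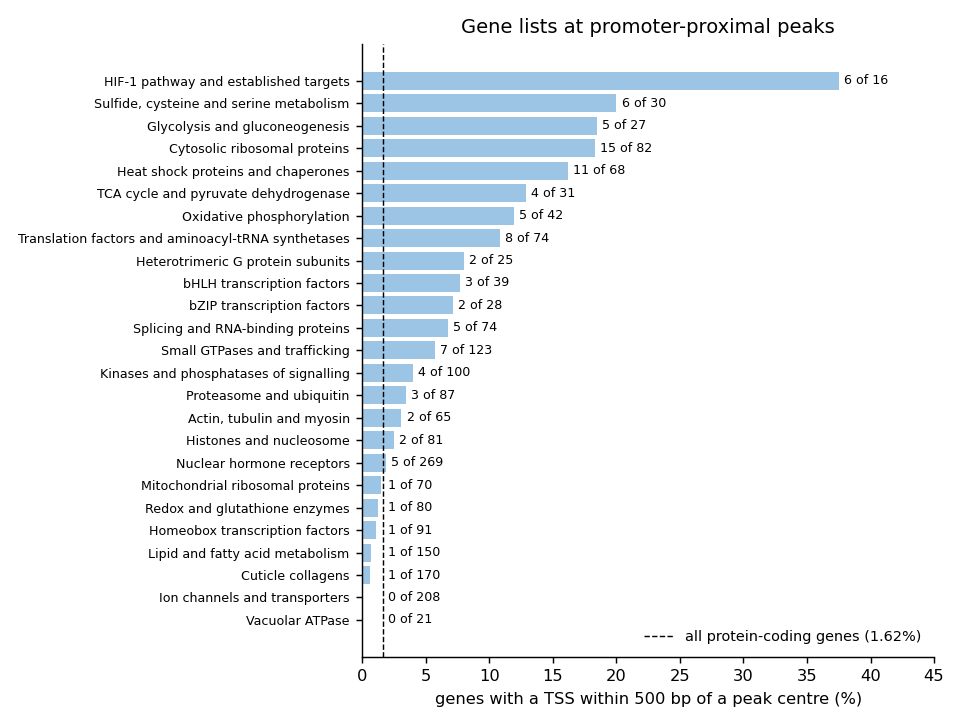
Share of the genes of each list with a TSS within 500 bp of a peak centre (horizontal axis, percent), with the number of genes beside each bar. The dashed line marks the 1.62% of all protein-coding genes, and the bars run from 37.5% for the HIF-1 pathway and its targets to 0 of 208 for ion channels and transporters and 0 of 21 for the vacuolar ATPase.

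Families of transcription factors ranged from below to above the 1.62% of all genes. Of 269 nuclear hormone receptor genes 5 (1.86%) had a proximal peak, close to the share of all genes, and apart from nhr-57 their signals ran from 59 at nhr-68 to 104.8 at nhr-47. The basic helix-loop-helix list had 3 of 39 genes (7.69%), hlh-11 (82.4), mdl-1, a MAD-like gene (67.9), and hlh-30, the TFEB homolog (55.2, without a core). The bZIP list had 2 of 28 (7.14%), zip-2 (80.8) and xbp-1, and the homeobox list 1 of 91 (1.1%), ceh-38 (67). These counts are small. Heterotrimeric G proteins had 2 of 25 genes (8%), the Gq alpha gene egl-30 (89.9 with 4 cores) and the Gs alpha gene gsa-1 (59.7).

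Other lists had few genes at proximal peaks, at shares on either side of the 1.62% of all genes. No gene of 208 ion channels and transporters was at one. Cuticle collagens had 1 of 170 (0.588%, col-85 at 55.3), lipid metabolism 1 of 150 (0.667%, the fatty acid desaturase gene fat-4 at 62.2) and redox and glutathione enzymes 1 of 80 (1.25%, gst-19). Histones had 2 of 81 (2.47%), his-37 (138.5) and the H2A.Z gene htz-1 (68.3), and the proteasome and ubiquitin list 3 of 87 (3.45%). Of these, gst-19 had the highest peak, at rank 24 of the whole list, while col-85 and fat-4 lay near the lower end of the members.

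Of the 324 genes 8 had 2 or more proximal peaks. At nhr-57 and sqrd-1 the further calls, of 56 and 63.3, overlapped the leading peak. Overlapping calls also made up the pairs at taap-1 (247.1 and 87.8, at 60 and 313 bp upstream), at mog-4 (117.6 and 63.7, at 216 and 420 bp upstream) and at jmjd-1.2. At H18N23.2 separate peaks of 86.1 and 62.7 lay 374 bp downstream and 322 bp upstream of its starts. The others, rips-1 and egl-9, also had separate peaks. In the overlapping calls at taap-1 and mog-4 the stronger was the one closer to the TSS, with 2 cores in its window, and the window of the weaker held none. At sqrd-1 the stronger call was also the closer one, and the weaker held no core. The order was the opposite at jmjd-1.2, with 192.9 at 476 bp and 64.7 at 273 bp upstream, each with 1 core. At nhr-57 the weaker call was slightly the closer, and both windows held 1 core.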

How the data were processed

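ChIP-seq of HIF-1::GFP was measured in 2 genotypes, with 2 ChIP replicates and 1 input each. Per the submitters' processing notes reads were aligned with BWA to WBcel235. The authors called peaks with SPP against input and kept those reproducible between replicates by IDR. The deposited lists, 1 per genotype, give the signal of each peak as enrichment over input. Replicate values and the depth of each library were not in the files, and only a range over all libraries is stated in the paper's methods. The lists were not scaled to each other, and the lowest deposited signal differs from the enrichment minimum of the study's methods.

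Peak centres were set against protein-coding TSSs of Ensembl release 115 (500 bp), and 19 mitochondrial peaks were left out. Motifs were read within 100 bp of the centre in the RefSeq WBcel235 genome. Python 3.11.15, NumPy 2.4.6, SciPy 1.17.1 and matplotlib 3.10.9 were used. Shares carry Wilson 95% intervals, and differences were tested with Fisher's exact test, two-sided, adjusted by Benjamini-Hochberg (threshold 0.05) over 8 tests, or over 3 added after the values were seen. Peaks are not replicates, and neighbouring ones share sequence. The tests were checked on simulated data. Named genes were those at the 25 highest peaks, the 10 highest divergent promoters, the 5 peaks closest to a TSS and the 5 with the most cores, at control peaks, at the 500 bp limit or with 2 or more peaks, and up to 6 per list. cct-1, hsp-3, dnj-9, eef-2, rps-0, rpl-22, gcy-33, C47E8.4 and Y22D7AL.6 were named after their values were seen, and the counting of CACGTG as 1 core was an alternative added then. The members and lists were chosen with earlier results of these data known.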

Additional observations from a re-analysis of the deposited data

How the results depend on the processing

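Values are odds ratios of promoter-proximal against distal peaks. No paired analysis was possible because each genotype had 1 peak list with no value per replicate, and for the same reason no replicate could be left out. For signal above the list's median (0.874) the value was 1.03 with TSSs within 250 bp and 0.599 with genes of every biotype. For GAGAGA (0.715) it was 0.628 within 250 bp, 0.643 with 200 bp read on either side of the centre and 0.624 without peaks near small RNA genes. For at least 2 cores (1.08) it turned to 0.997 within 1000 bp, 0.971 with 1 TSS per gene and also with 50 bp read on either side, 0.664 with every biotype, 0.886 in the 302 strongest peaks, 0.791 with ACGTG alone and 0.867 without peaks near small RNA genes. For the HRE core (1.37) it turned to 0.777 with every biotype and 0.929 with ACGTG alone. For the upstream share (3.62) it was 1.27 with every biotype. The number of proximal peaks, 264, became 415 with every biotype, and 127 among the 302 strongest peaks. The small RNA share (0.29) kept its direction and its call in each alternative with a value. With every biotype it was not given, since the TSSs of such genes then help to decide which peaks are proximal. Of 112 values 90 kept direction and side of the threshold. The cause of the other changes was not tested.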
